A study of Mus musculus with 15 samples.

Results

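The potassium channel genes of adult neural stem cells (aNSCs) are described here as all protein-coding mouse genes whose symbol starts with Kcn. Ensembl gene IDs of the count table were matched to symbols, which gave 94 such genes among the 53801 genes of the table, and 5 noncoding Kcn genes were left out. By symbol, 30 encode pore-forming voltage-gated subunits, 10 encode silent voltage-gated modifiers, 8 encode calcium- or sodium-activated channels or their pH-gated relative Kcnu1, 15 encode inward rectifiers, 14 encode two-pore domain channels and 17 encode auxiliary subunits. The cells were grown in suspension with B-27, EGF and bFGF after isolation from the subventricular zone of 2-month-old C57BL6/J-129sv mice, and all mice carried the Rosa26-CreERT2 transgene, a tamoxifen-dependent Cre expressed from a broadly active locus. The 3 groups of 5 cultures were Trrap Fl/+ cells without treatment, Trrap Fl/+ cells given 4-hydroxytamoxifen (4-OHT), and Trrap Fl/Fl cells given 4-OHT. The labels give 5 days of 4-OHT, while the study's methods describe a shorter exposure followed by a time in fresh medium. Both Fl/+ groups came from mice 19, 24, 26, 35 and 36, and the Fl/Fl group from mice 27, 28, 29, 37 and 39. 4-OHT also recombines the floxed allele of the Fl/+ cells, so the Fl/+ 4-OHT group keeps 1 unfloxed Trrap allele, and what the untreated cultures received in place of 4-OHT is not described in the sources used here.

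Potassium channels let potassium leave or enter the cell along its gradient and so set the resting potential and shape electrical signals. Inward rectifiers and two-pore domain channels hold the membrane near the potassium equilibrium, voltage-gated and calcium-activated channels open on depolarization or on a rise in calcium, and auxiliary subunits change how the pores gate and where they are placed. Glia and neural stem cells are known for high resting potassium conductance, in which Kir4.1, the product of Kcnj10, has a large part, and neurons for a wide set of voltage-gated channels. Trrap is a scaffold of several histone acetyltransferase complexes, and the study asked how its loss changes transcription, with a part for the factor Sp1, which binds GC boxes.

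The libraries held between 25720034 and 32187097 counts assigned to genes, of which the Kcn genes took 0.195 to 0.278% in Fl/+ untreated, 0.252 to 0.285% in Fl/+ 4-OHT and 0.281 to 0.316% in Fl/Fl 4-OHT cultures. 3 counts, the floor at or under which a gene was taken as undetected, corresponded to 0.0933 to 0.119 CPM, counts scaled to the size of the library, and such floors cover counting error only. Trrap, the targeted gene, was at 190 ± 14.3 CPM in untreated, 164 ± 26.5 CPM in Fl/+ 4-OHT and 104 ± 24.2 CPM in Fl/Fl 4-OHT cultures (SD, n = 5 each). It fell by 0.64 ± 0.16 on the log2 scale (SE) between the 4-OHT groups (edgeR adjusted p = 0.0115), but the groups overlapped: the library labelled Fl/Fl 29 held 142 CPM, inside the Fl/+ 4-OHT range of 138 to 204 CPM, while the other 4 Fl/Fl libraries held 82.8 to 115 CPM. The library labelled Fl/Fl 39 has a female label but held 54.1 CPM of the Y-linked Ddx3y and 0.313 CPM of Xist, so it goes against its sex label, and the total of Kcn genes called in each comparison that uses Fl/Fl 29 or 39 is given with and without either. Xist was at 5.89 CPM in the untreated and 74.7 CPM in the 4-OHT culture of the male-labelled mouse 36, against 403 to 693 CPM in the female-labelled Fl/+ cultures. All 10 neural stem cell markers were detected in every group. Of 5 microglial markers 0 were detected in either Fl/+ group and 2 in Fl/Fl 4-OHT cultures, with a summed level of 0.0698 to 0.616, 0.0791 to 0.507 and 0.689 to 2.02 CPM in the 3 groups, and the defining Aif1, Cx3cr1 and Tmem119 stayed at or under the floor in each library. Of 5 endothelial markers 3, 3 and 2 were detected, with a summed level of 13.1 to 25.5, 21.3 to 63.6 and 22.0 to 48.2 CPM, most of it Flt1, and the defining Cdh5 and Cldn5 were not detected. In each group 8 of 8 astrocyte and 7 of 8 neuron markers were detected. Fewer cells of one type and less RNA per cell cannot be told apart in such bulk cultures.

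Of the 94 Kcn genes, 57 (60.6%) were detected in the untreated Fl/+ cultures, with over 3 counts in each of the 5 libraries. Another 18 passed that floor in some libraries only, and 19 stayed at or under it in each. The share is close to the 59.5% of all protein-coding genes in the table (13068 of 21967) that were detected by the same rule. Detection was widest among calcium- or sodium-activated channels (7 of 8) and voltage-gated subunits (23 of 30), followed by auxiliary subunits (10 of 17), inward rectifiers (7 of 15), two-pore domain channels (6 of 14) and silent modifiers (4 of 10). At a mean of at least 1 CPM 49 genes remained, at 10 CPM 25 and at 100 CPM 7. The number of detected genes was 58 in Fl/+ 4-OHT and 63 in Fl/Fl 4-OHT cultures.

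**Figure D1:**
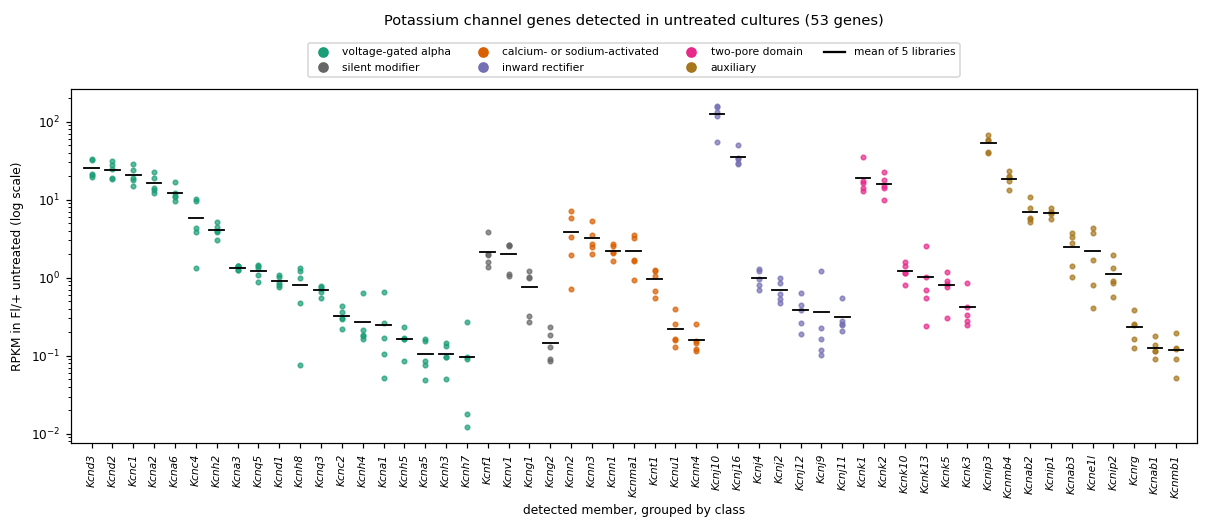
RPKM (log scale) of 53 detected Kcn genes in Fl/+ untreated cultures, grouped by class, with 1 point for each of 5 libraries and a bar at the mean. Kcnj10 sits highest with a mean of 124 RPKM, followed by Kcnip3 at 52.5 RPKM and Kcnj16 at 34.9 RPKM.

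The detected voltage-gated genes came from several pore subfamilies. Among them were Kcna1, Kcna2, Kcna3, Kcna5 and Kcna6 (Kv1, Shaker type), Kcnc1, Kcnc2 and Kcnc4 (Kv3, fast-spiking channels), Kcnd1 to Kcnd3 (Kv4, A-type currents), Kcnh2 to Kcnh5, Kcnh7 and Kcnh8 (ether-a-go-go family) and Kcnq3 and Kcnq5 (M-current family). Kcna7 and Kcnq1, the Kv7 subunit of heart and epithelia, were not detected. Kcna4, Kcna10, Kcnb2, Kcnh1 and Kcnh6 passed the floor in some untreated libraries only. Among the silent modifiers, which form no channel alone, Kcnf1, Kcng1, Kcng2 and Kcnv1 were detected.

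The detected calcium- or sodium-activated genes were Kcnma1 (the large-conductance BK pore), Kcnn1 to Kcnn3 (small-conductance SK channels), Kcnn4 (the intermediate-conductance channel), Kcnt1 (sodium-activated Slack) and Kcnu1 (the pH-sensitive Slo3 known from sperm), with Kcnt2 above the floor in some libraries. Inward rectifiers were represented by Kcnj2, Kcnj4 and Kcnj12 (strong rectifiers), Kcnj9 (a G protein-gated subunit), Kcnj10 and Kcnj16 (glial partners) and Kcnj11 (the pore of ATP-sensitive channels). Kcnk1, Kcnk2, Kcnk3, Kcnk5, Kcnk10 and Kcnk13 were the detected two-pore domain genes. The auxiliary genes were Kcnab1 to Kcnab3 (Kv1 beta subunits), Kcnip1 to Kcnip3 (calcium sensors that bind Kv4), Kcnmb1 and Kcnmb4 (BK beta subunits), Kcne1l and Kcnrg. In all 15 libraries together Kcnk15, Kcnk16, Kcnk18, Kcnmb3 and Kcnv2 had 0 counts, and 14 genes stayed at 3 counts or fewer in each library, among them the epithelial Kcne1, Kcne2, Kcne3, Kcnj1, Kcnj13 and Kcnq1.

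Levels between genes were compared per length, as CPM over the summed exon length in kilobases (RPKM). Kcnj10 (chr1:172341210-172374085, plus strand) was the most abundant at 124 ± 42.3 RPKM (SD, n = 5), with 118, 55.0, 156, 160 and 132 RPKM in the untreated cultures of mice 19, 24, 26, 35 and 36. Mouse 24 was the low culture. Kcnip3, a calcium sensor that also acts as a transcriptional repressor, followed at 52.5 ± 12.2 RPKM, and then Kcnj16, the Kir5.1 partner of Kcnj10, at 34.9 ± 8.75 RPKM. Kcnj10 exceeded Kcnip3 in 4 of 5 libraries, and Kcnip3 exceeded Kcnj16 in 4 of 5.

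The next genes were the Kv4 subunits Kcnd3 (25.2 ± 6.67 RPKM) and Kcnd2 (24.2 ± 5.63), the Kv3 subunit Kcnc1 (20.8 ± 5.48), Kcnk1, which encodes the weakly conducting two-pore channel TWIK1 (19.1 ± 8.97), Kcnmb4, a neuronal BK beta subunit (18.6 ± 3.60), Kcna2 (16.2 ± 4.29) and the mechano- and lipid-sensitive Kcnk2 (15.8 ± 4.70). The ranges over the 5 libraries overlapped between each of the 10 genes and the next, so neighbours in this order were not separated by more than the spread between mice. By CPM without length the order changed, with Kcnip3 in place 5, Kcnd3 in place 2 and Kcnk1 in place 11. Kcnj10 alone took 14.8 to 33.0% of the summed CPM of all Kcn genes in untreated cultures, 13.3 to 37.3% in Fl/+ 4-OHT and 26.5 to 51.9% in Fl/Fl 4-OHT cultures.

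The summed level of the 94 genes was 2452 ± 371 CPM in untreated, 2689 ± 138 CPM in Fl/+ 4-OHT and 2930 ± 197 CPM in Fl/Fl 4-OHT cultures (SD, n = 5 each). Without Kcnj10 the sums were 1780 ± 206, 1898 ± 294 and 1828 ± 206 CPM. Kcnj10 itself read 638, 297, 841, 865 and 715 CPM in untreated, 868, 360, 794, 1011 and 923 CPM in Fl/+ 4-OHT, and 745, 1022, 824, 1626 and 1289 CPM in Fl/Fl 4-OHT cultures, in the order of mouse numbers given above. Its groups overlapped. The log2 difference between the 4-OHT groups was 0.49 ± 0.27 (SE; edgeR adjusted p = 0.196), with a 95% interval of -0.05 to 1.03.

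To show what lies upstream of the genes that the results turn on, 250 bases before the RefSeq start (GRCm38.p6) are printed for 6 of them, chosen after their values were seen from windows that end before the annotated gene. Capitals mark the GC box GGGCGG or its reverse complement CCGCCC, and the E-box CACGTG. Kcnj10 is the most abundant member, Kcnd2 a Kv4 subunit that fell with 4-OHT, Kcnk1, Kcnn4 and Kcnip2 rose in Fl/Fl 4-OHT against Fl/+ 4-OHT cultures, and Kcnip1 fell there. The windows, each read 5′ to 3′ along the gene's strand, lie at chr1:172340960-172341209 (Kcnj10, plus), chr6:21215096-21215345 (Kcnd2, plus), chr8:125994852-125995101 (Kcnk1, plus), chr7:24370013-24370262 (Kcnn4, plus), chr19:45816064-45816313 (Kcnip2, minus) and chr11:33993194-33993443 (Kcnip1, minus).
Kcnj10: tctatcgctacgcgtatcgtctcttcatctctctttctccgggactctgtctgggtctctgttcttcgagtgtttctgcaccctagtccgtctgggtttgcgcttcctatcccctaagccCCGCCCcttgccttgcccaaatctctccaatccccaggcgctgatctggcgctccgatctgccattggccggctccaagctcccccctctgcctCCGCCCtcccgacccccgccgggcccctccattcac
Kcnd2: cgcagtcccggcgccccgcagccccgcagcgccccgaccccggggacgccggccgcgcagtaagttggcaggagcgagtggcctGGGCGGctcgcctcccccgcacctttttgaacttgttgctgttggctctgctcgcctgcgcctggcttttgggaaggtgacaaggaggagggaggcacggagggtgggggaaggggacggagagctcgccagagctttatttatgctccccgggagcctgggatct
Kcnk1: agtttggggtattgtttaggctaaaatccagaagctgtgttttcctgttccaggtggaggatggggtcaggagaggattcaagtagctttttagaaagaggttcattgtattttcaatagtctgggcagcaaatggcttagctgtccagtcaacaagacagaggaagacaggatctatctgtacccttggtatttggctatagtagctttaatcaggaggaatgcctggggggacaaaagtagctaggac
Kcnn4: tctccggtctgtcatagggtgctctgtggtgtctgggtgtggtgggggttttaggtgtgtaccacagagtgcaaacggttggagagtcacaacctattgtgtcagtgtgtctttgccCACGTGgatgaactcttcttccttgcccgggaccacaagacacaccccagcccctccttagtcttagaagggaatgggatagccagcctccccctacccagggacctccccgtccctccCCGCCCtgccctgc
Kcnip2: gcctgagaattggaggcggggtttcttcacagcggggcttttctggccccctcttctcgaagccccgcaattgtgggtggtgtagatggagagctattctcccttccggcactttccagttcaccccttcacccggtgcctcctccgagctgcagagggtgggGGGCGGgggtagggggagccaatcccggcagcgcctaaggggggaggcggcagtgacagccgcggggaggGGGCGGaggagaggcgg
Kcnip1: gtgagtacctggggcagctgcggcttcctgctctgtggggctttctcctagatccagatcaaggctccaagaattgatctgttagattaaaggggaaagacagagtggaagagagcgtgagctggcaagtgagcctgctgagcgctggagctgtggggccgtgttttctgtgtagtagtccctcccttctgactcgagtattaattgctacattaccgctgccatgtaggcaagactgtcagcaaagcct

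The windows of Kcnj10 and Kcnip2 hold 2 GC boxes each, those of Kcnd2 and Kcnn4 hold 1, and those printed for Kcnk1 and Kcnip1 hold none. Kcnip1 has 3 RefSeq windows, of which another holds 1 GC box, and it is counted below as holding one. Only the Kcnn4 window among these 6 holds an E-box. Of the 94 Kcn genes, 69 matched a RefSeq window by symbol, and 41 of the 69 (59.4%) held a GC box on either strand in at least 1 window, against 35.4% of all 27025 symbols. The symbols of that comparison were not limited to protein-coding or detected genes, and a gene with more windows has more chances of a match. Among Kcn genes the share was 67.5% of the 40 detected genes with a window and 33.3% of the 15 that were not detected. The share by detection was not computed over all symbols. An E-box stood in 5 of the 69 (7.25%), against 6.86% of all symbols. Among the genes called in the Trrap deletion comparison, 4 of 7 higher and 5 of 6 lower ones held a GC box, as did 20 of 29 that were tested and not called. Kcnmb4, described below, held 4 GC boxes. A match describes these letters and not a bound site.

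Kcn genes varied more over the untreated cultures than the tested genes as a whole, in a ratio not matched for expression level. Low counts widen such a ratio, and Kcnh7 for instance held 5 to 118 counts in the untreated libraries. Each mouse gave a single culture per group, so mouse and culture cannot be told apart within a group. Over the 5 untreated cultures the ratio of the highest to the lowest CPM had a median of 2.63 for the 56 Kcn genes tested in the 4-OHT comparison, and of 1.60 for all 14821 genes tested. The mouse with the highest level was the same before and after 4-OHT for 29 of 56 Kcn genes (51.8%), against 38.1% of all genes, and the lowest mouse was the same for 20 (35.7%), against 36.6%. Kcnj9, the GIRK3 subunit, read 0.507, 5.24, 0.700, 0.963 and 0.442 CPM in untreated and 0.609, 4.78, 0.593, 1.08 and 0.459 CPM in Fl/+ 4-OHT cultures, so mouse 24 stood above the others in both. Kcna1, a Kv1 subunit, read 3.16 CPM in untreated and 3.02 CPM in 4-OHT cultures of mouse 35, and 0.244 and 0.253 CPM in those of mouse 24. Mouse 24 was also highest in both groups for Kcnk13, Kcne1l and Kcnn2.

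**Figure D2:**
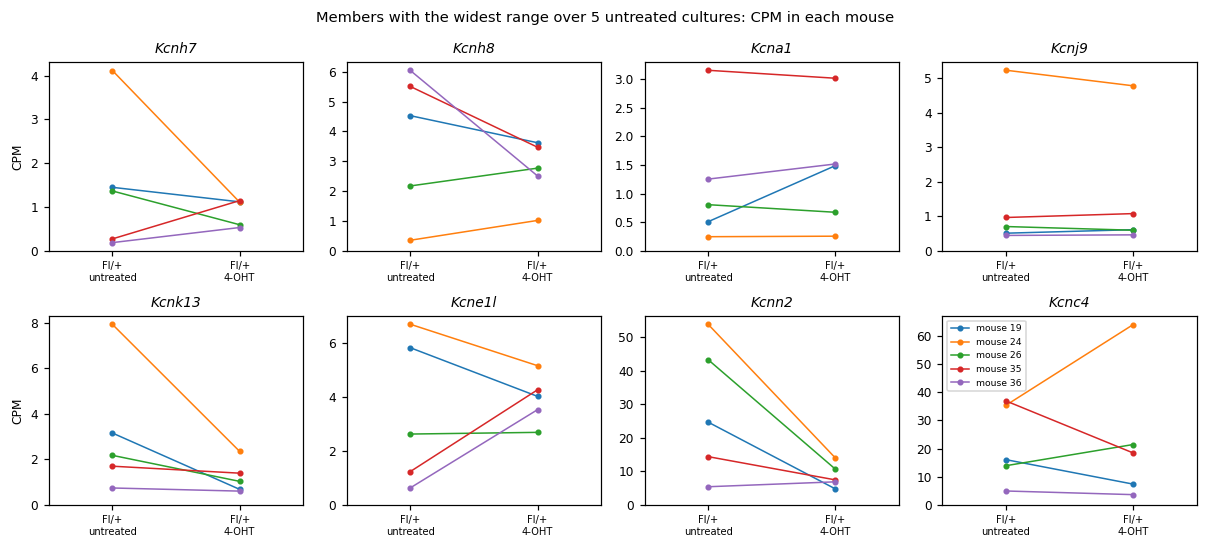
CPM of the 8 Kcn genes with the widest range over 5 untreated cultures, with lines joining the Fl/+ untreated and Fl/+ 4-OHT cultures of each mouse. The line of mouse 24 stays highest for Kcnj9, Kcnk13, Kcne1l and Kcnn2, and that of mouse 35 for Kcna1.

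Trrap deletion was examined by comparing Fl/Fl 4-OHT with Fl/+ 4-OHT cultures. 60 of the 94 Kcn genes passed the filter on low counts and 18 were called (30%), where a call means that edgeR's quasi-likelihood test gave a Benjamini-Hochberg adjusted p, over all 15036 genes tested, of less than 0.05. This is near the 31.7% of all tested genes that were called. 12 Kcn genes were higher, against 16.8% of all genes, and 6 were lower, against 15%. The median log2 change of the 60 genes was 0.01, and of all genes 0.02. By class, 50% of 8 auxiliary, 37.5% of 8 calcium- or sodium-activated, 33.3% of 24 voltage-gated, 28.6% of 7 two-pore domain, 20% of 5 silent and 0% of 8 inward rectifier genes were called, each to be read against the same 31.7%. Without Fl/Fl 39 the total was 16, Kcnh4, Kcnq5 and Kcnu1 no longer being called and Kcnt2 being added, and without Fl/Fl 29 it was again 18, but with Kcnh4, Kcnip2, Kcnq5 and Kcnu1 no longer called and Kcna1, Kcna4, Kcne1l and Kcnq3 added.

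**Figure D3:**
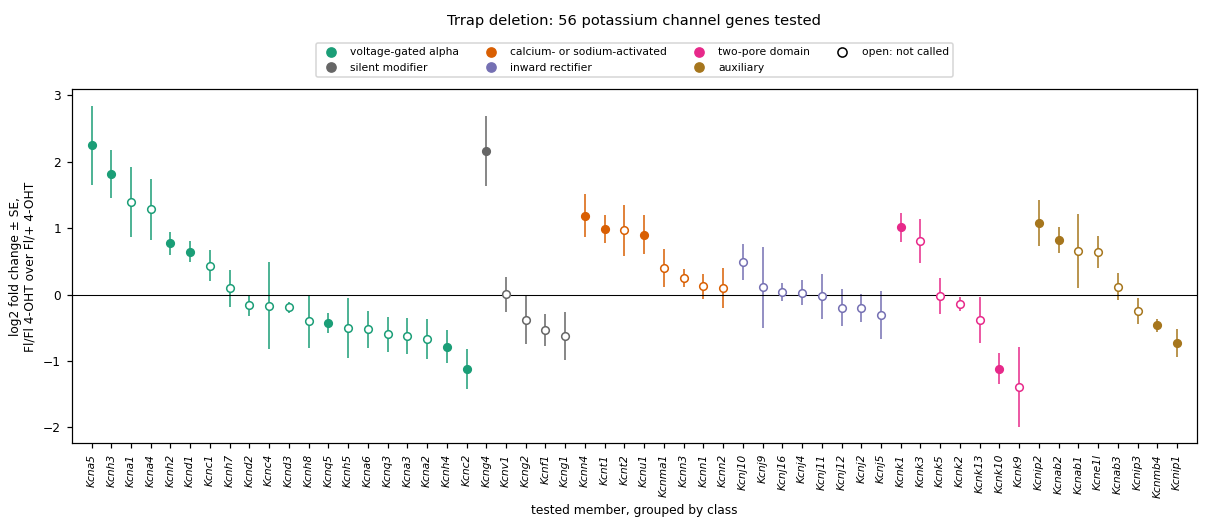
Log2 fold change ± SE (5 against 5 libraries) of 56 tested Kcn genes, Fl/Fl 4-OHT over Fl/+ 4-OHT, grouped by class; filled points passed the test. The 8 calcium- or sodium-activated genes all lie above 0, while the 8 inward rectifiers lie on both sides and none was called.

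Among the calcium- or sodium-activated channels, 3 of 8 tested genes rose (16.8% of all genes did) and all 8 had a log2 change above 0, with a median of 0.65. Kcnu1 is placed here by family, since its Slo3 channel is gated by pH and voltage, and 2 of the 7 others rose. Of all 15036 genes tested, 7780 had a log2 change above 0, and in the 4-OHT comparison 3 genes of the class lay above 0 and 4 below. That comparison uses the Fl/+ 4-OHT libraries on its other side, so the tallies are not independent. Kcnt2 was not tested there, and held 3 to 12 counts in Fl/+ 4-OHT and 7 to 20 in Fl/Fl libraries. Kcnt1, the sodium-activated Slack channel, read 7.91, 10.2, 7.55, 15.6 and 9.39 CPM in Fl/+ 4-OHT and 21.2, 17.7, 25.1, 14.9 and 20.1 CPM in Fl/Fl 4-OHT cultures. The ranges overlapped through Fl/+ 35 and Fl/Fl 37, and the rise was 0.98 ± 0.21 (log2 ± SE; edgeR adjusted p = 0.0053). Kcnn4, the KCa3.1 channel, read 2.03, 0.760, 0.870, 0.763 and 0.706 CPM against 3.08, 2.01, 2.03, 1.66 and 2.78 CPM. All Fl/+ cultures but that of mouse 19 lay under every Fl/Fl culture, and the rise was 1.18 ± 0.33 (edgeR adjusted p = 0.0175). Kcnu1, at 0.740 ± 0.289 CPM and 1.36 ± 0.206 CPM (SD, n = 5), rose by 0.90 ± 0.29 without overlap. Its call was lost when any 1 of Fl/+ 19, 26 or 36 or Fl/Fl 27, 28, 29 or 39 was left out, with edgeR adjusted p of 0.0541 to 0.0882 (0.0152 to 0.0882 over all alternatives). The other 5 had log2 changes of 0.10 (Kcnn2), 0.12 (Kcnn1), 0.24 (Kcnn3), 0.40 (Kcnma1) and 0.97 (Kcnt2).

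In the two-pore domain class Kcnk1 rose and Kcnk10 fell, out of 7 tested genes (28.6% called, against 31.7% of all genes). Kcnk1 read 31.3, 46.4, 51.4, 41.4 and 27.8 CPM in Fl/+ 4-OHT and 108, 65.1, 59.1, 64.8 and 98.8 CPM in Fl/Fl 4-OHT cultures. Every Fl/Fl culture exceeded every Fl/+ 4-OHT culture, and the rise was 1.01 ± 0.22 (edgeR adjusted p = 0.00513). Kcnk10, the TREK2 channel, moved the other way, from 18.7, 8.58, 13.2, 13.0 and 15.7 CPM to 4.88, 8.27, 4.62, 8.13 and 5.70 CPM. Its groups did not overlap, by a narrow gap between Fl/+ 24 and Fl/Fl 28, and it fell by 1.12 ± 0.23 (edgeR adjusted p = 0.00437).

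Of 24 tested voltage-gated subunits 8 were called (33.3%, against 31.7% of all genes), 5 higher and 3 lower. Kcnh2, the ERG channel, rose by 0.77 ± 0.17 (edgeR adjusted p = 0.00575) from 15.6 ± 2.49 to 26.3 ± 6.23 CPM, and the X-linked Kv4 subunit Kcnd1 rose by 0.65 ± 0.16 from 5.33 ± 0.813 to 8.25 ± 1.35 CPM (SD, n = 5), both without overlap. Kcnq5, an M-current subunit, fell by 0.43 ± 0.15 from 10.2 ± 1.26 to 7.45 ± 1.45 CPM with overlapping groups. Its edgeR adjusted p was 0.0474 and lay between 0.0604 and 0.104 when any 1 of Fl/+ 19, 24, 35 or 36 or Fl/Fl 27, 28, 29 or 39 was left out (0.0159 to 0.104 over all alternatives).

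A further 4 voltage-gated calls and that of the silent modifier Kcng4 rested on a mean under 1 CPM. Of these, Kcna5, Kcng4 and Kcnh3 passed the filter on low counts through the Fl/Fl libraries. They held 18 to 85, 16 to 53 and 18 to 41 counts there. In Fl/+ 4-OHT libraries the counts were 2 to 15, 2 to 20 and 2 to 12, so a fall from there could not have been tested. Kcnc2 passed through the Fl/+ 4-OHT libraries, at 22 to 34 counts against 8 to 19 in Fl/Fl ones. Kcna5, Kv1.5, read 0.473, 0.0634, 0.158, 0.243 and 0.529 CPM against 0.560, 1.60, 0.754, 3.29 and 0.834 CPM, a rise of 2.25 ± 0.60 that was 1.66 without Fl/Fl 37. Kcng4 read 0.0676, 0.634, 0.198, 0.278 and 0.0706 CPM against 1.24, 1.22, 0.754, 0.619 and 1.84 CPM, with overlap through Fl/+ 24. It rose by 2.16 ± 0.53, and by 2.87 without Fl/+ 24. Kcnh3, a brain ether-a-go-go-like channel, rose by 1.82 ± 0.36, from 0.283 ± 0.148 to 0.999 ± 0.266 CPM (SD, n = 5). Kcnc2, a Kv3 subunit of fast-spiking neurons, fell by 1.12 ± 0.30, and Kcnh4 fell by 0.79 ± 0.25. The Kcnh4 call was lost without Fl/+ 19 or 24 or without Fl/Fl 28, 29 or 39, at edgeR adjusted p of 0.0514 to 0.0827. Over all alternatives its adjusted p lay between 0.0214 and 0.12. The choice to name these 5 was made with their values in view.

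Auxiliary subunits moved both ways, with 2 higher and 2 lower among 8 tested (of all genes, 16.8% were higher and 15% lower). Kcnab2, a Kv1 beta subunit, read 26.8, 34.1, 30.3, 41.6 and 25.7 CPM in Fl/+ 4-OHT and 51.1, 45.4, 47.8, 45.4 and 87.5 CPM in Fl/Fl 4-OHT cultures. It rose by 0.82 ± 0.20 without overlap (edgeR adjusted p = 0.00986), Fl/Fl 39 being far above the rest, and the call was kept without that library. Exons of Kcnab2 overlap Gm16334 on the same strand, which leaves its counts uncertain. Kcnip2, a Kv4-binding calcium sensor, rose by 1.08 ± 0.35 from 3.19 ± 1.89 to 6.66 ± 1.43 CPM with overlap through Fl/+ 26, and lost the call (edgeR adjusted p of 0.0543 to 0.0782) when any 1 of Fl/+ 19, 24, 35 or 36 or Fl/Fl 27, 28 or 29 was left out (0.00411 to 0.0782 over all alternatives).

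Kcnip1, of the same family, fell by 0.73 ± 0.21 (edgeR adjusted p = 0.0206), reading 57.5, 66.9, 92.3, 48.4 and 41.0 CPM against 34.4, 38.0, 41.6, 42.2 and 26.8 CPM. Its groups overlapped narrowly at Fl/+ 36. Kcnmb4 read 23.2, 24.4, 28.6, 25.6 and 30.9 CPM against 19.2, 21.3, 17.4, 19.7 and 17.6 CPM. It fell by 0.47 ± 0.10 without overlap (edgeR adjusted p = 0.00544). Kcnmb4 overlaps 2 antisense genes, and the authors counted by strand. None of the 8 tested inward rectifiers was called in edgeR, 0 had an unadjusted p under 0.05, and DESeq2 called 0 of the class. Without Fl/+ 24, however, Kcnj9 was called with a log2 change of 1.24 (edgeR adjusted p = 0.0254). Neuron markers moved alongside, with 2 of 7 tested lower and a summed level of 651 to 851 CPM in Fl/Fl against 885 to 1094 CPM in Fl/+ 4-OHT cultures, and neural stem cell markers with 4 of 10 lower, while 1 of 8 astrocyte markers was higher. Their part in these differences was not tested.

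**Figure D4:**
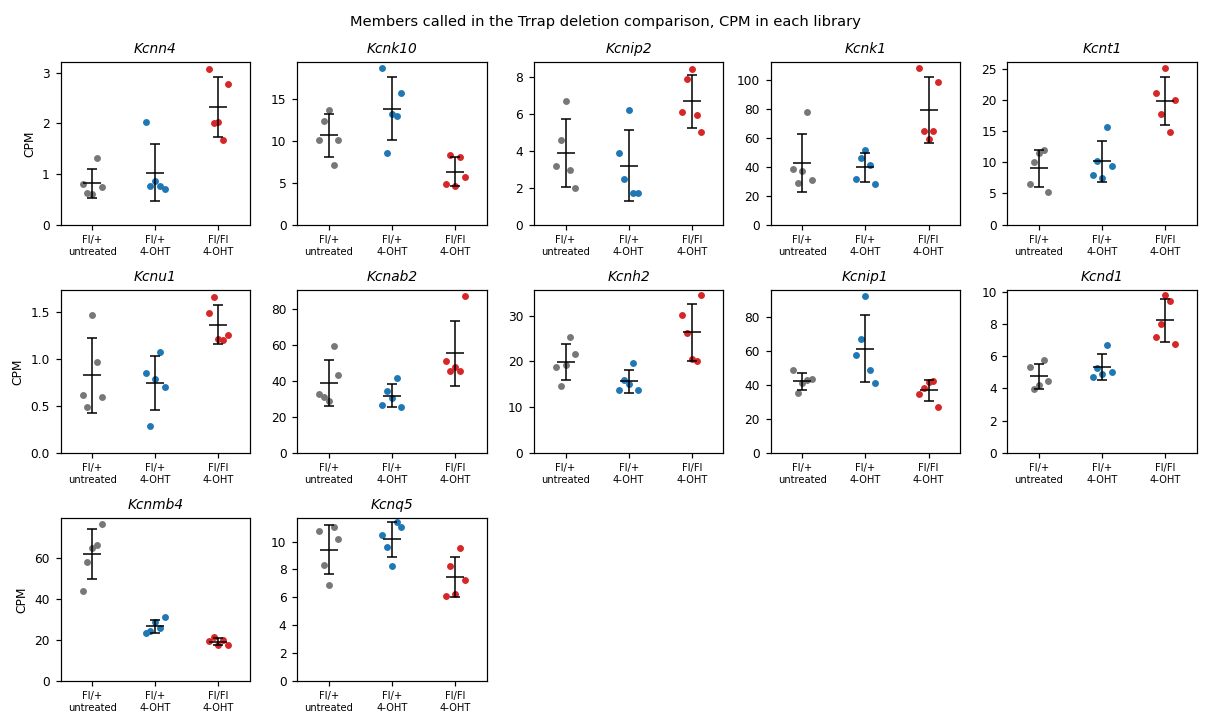
CPM in each library (points), with mean ± SD (n = 5), of 12 Kcn genes that were called in the Trrap deletion comparison at a mean of at least 1 CPM. For Kcnk1, Kcnh2 and Kcnd1 every Fl/Fl 4-OHT point lies above every Fl/+ 4-OHT point, and for Kcnk10 and Kcnmb4 every one lies below.

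The 4-OHT comparison set Fl/+ 4-OHT against Fl/+ untreated cultures of the same mice. It joins the drug, active Cre and recombination of the floxed Trrap allele, which these groups cannot tell apart. Trrap itself changed by -0.21 ± 0.11 here (log2 ± SE; edgeR adjusted p = 0.234). Of 56 Kcn genes tested 5 were called (8.93%), against 13.8% of all 14821 genes. 2 were higher, against 7.34% of all genes, and 3 were lower, against 6.45%. With the mouse number as a block 11 were called (19.6%), against 25.7% of all genes, with 3 higher (13.8% of all genes) and 8 lower (11.9% of all genes). The 6 added by the block were Kcna2, Kcnab1, Kcnk13, Kcnn2, Kcnq3 and Kcnv1.

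Kcnmb4 had the lowest adjusted p. It read 43.9, 57.7, 64.9, 66.0 and 76.3 CPM in untreated and 23.2, 24.4, 28.6, 25.6 and 30.9 CPM in Fl/+ 4-OHT cultures of mice 19, 24, 26, 35 and 36. It was lower in all 5 mice with no overlap, and fell by 1.22 ± 0.14 (edgeR adjusted p = 0.000689). Kcnc2 fell by 1.19 ± 0.23 (adjusted p = 0.00706), from 2.14, 3.07, 2.62, 2.16 and 1.55 CPM to 0.879, 1.08, 1.23, 1.08 and 0.776 CPM, also lower in all 5 mice without overlap. Both genes were called lower in the Trrap deletion comparison as well, which shares the Fl/+ 4-OHT libraries with this one.

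Kcnd2, the main Kv4 subunit of many neurons, read 93.9, 98.2, 126, 143 and 162 CPM in untreated and 89.1, 46.9, 77.9, 74.5 and 76.0 CPM in Fl/+ 4-OHT cultures. It fell by 0.77 ± 0.19 (edgeR adjusted p = 0.0213) and was lower in all 5 mice, least in mouse 19, and the adjusted p was 0.0509 without Fl/+ 4-OHT 35 (0.00236 to 0.0509 over all alternatives). Between the 4-OHT groups its log2 difference was -0.16 ± 0.16, with a 95% interval of -0.49 to 0.16. Kcna3, Kv1.3, read 2.35, 2.69, 2.69, 2.66 and 2.39 CPM in untreated and 5.41, 6.11, 4.31, 3.64 and 2.43 CPM in Fl/+ 4-OHT cultures. It rose by 0.78 ± 0.24, but the edgeR adjusted p of 0.0492 became 0.0666 to 0.115 when any library other than Fl/+ 4-OHT 36 was left out (0.0128 to 0.115 over all alternatives).

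Among the calls added by the block, Kcna2 read 167, 268, 146, 222 and 160 CPM in untreated and 270, 655, 287, 289 and 199 CPM in 4-OHT cultures, higher in all 5 mice, with a log2 change of 0.73 ± 0.14 in the blocked fit (edgeR adjusted p = 0.00798) and of 0.82 ± 0.30 without the block (adjusted p = 0.0919). Kcnn2, the SK2 channel, read 24.7, 53.9, 43.3, 14.4 and 5.38 CPM against 4.73, 14.0, 10.6, 7.42 and 6.85 CPM, lower in all mice but 36. Its blocked change was -1.44 ± 0.36 (edgeR adjusted p = 0.0207), and without the block it was -1.70 ± 0.53 (adjusted p = 0.054). Blocked log2 changes were -1.54 ± 0.42 for Kcnab1, -1.18 ± 0.32 for the two-pore channel Kcnk13, -0.59 ± 0.17 for the silent modifier Kcnv1 and -0.58 ± 0.16 for the M-current subunit Kcnq3, each lower in all 5 mice.

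Some genes too low for the filter, and so not tested in the main fit, are named here with their values in view. DESeq2, run without that filter, called Kcnk9 with a log2 change of 6.88 (Wald test adjusted p = 9.93e-09). It also called Kcnh6 at -3.62 (adjusted p = 0.000372) and Kcnj5 at 2.44 (adjusted p = 0.0271). Kcnk9, the acid-sensitive TASK3 channel, had at most 1 count in each untreated library and 10 to 55 counts in each Fl/+ 4-OHT library. Its mean of 1.18 ± 0.694 CPM after 4-OHT was at least 10.8-fold higher than the untreated floor of 3 counts per library. It held 0.187, 0.102, 0.295, 0.813 and 0.834 CPM in Fl/Fl 4-OHT cultures. Kcnh6, an ether-a-go-go relative, went from 0.579, 0.0698, 0.385, 1.16 and 0.811 CPM to 0.101, 0, 0.0395, 0.0347 and 0.0706 CPM. Its groups overlapped, since untreated mouse 24 lay under 2 of the 4-OHT cultures. Among the other members left out of the main fit the CPM of Kcnj5 and Kcnj8 did not overlap between the groups. They held 6 to 16 and 4 to 5 counts in the 4-OHT libraries and at most 6 and 2 counts in the untreated ones. Kcnj13, whose CPM lay lower after 4-OHT without overlap, had 3 counts or fewer in each library.

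**Figure D5:**
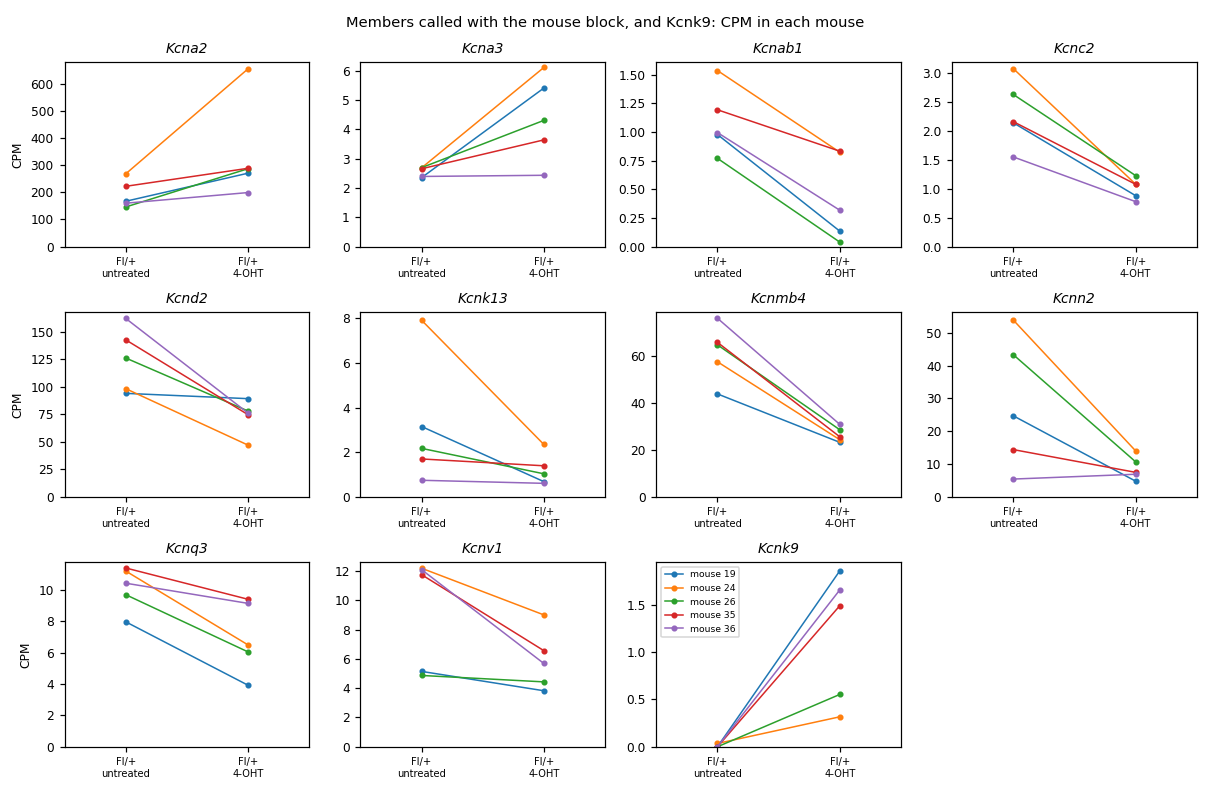
CPM of 10 Kcn genes called in the 4-OHT comparison with the mouse block, and of Kcnk9, with lines joining the Fl/+ untreated and Fl/+ 4-OHT cultures of each of 5 mice. Kcnmb4, Kcnc2 and Kcnd2 fell and Kcna2 rose in every mouse, and Kcnk9 starts at or near 0.

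Oligodendrocyte lineage markers also moved with 4-OHT, 6 of 10 being higher with a median log2 change of 1.38, although their summed level overlapped (3465 to 4514 CPM in untreated, 3373 to 4662 CPM in Fl/+ 4-OHT). Astrocyte markers moved too, with 1 of 8 higher and 4 lower, as did neural stem cell markers, with 2 of 10 higher and 2 lower. Of the tested endothelial markers 1 of 2 was higher, as was 1 of 4 of pericytes and smooth muscle. Mitochondrial genes took 1.72 to 3.56% of counts in untreated and 0.849 to 1.74% in Fl/+ 4-OHT libraries. Their part in the Kcn differences was not tested.

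Genotype and treatment both differ between Fl/Fl 4-OHT and Fl/+ untreated cultures, a comparison that shares its groups with the others. Here 59 Kcn genes were tested and 16 called (27.1%), against 30.7% of all 15032 genes. 9 were higher, against 15.7% of all genes, and 7 were lower, against 15.1%. Without Fl/Fl 39 the count was 13, and without Fl/Fl 29 it was 15. Markers of the neural stem cells were lower in 4 of 10 cases (summed level 7367 to 10609 CPM in untreated and 5990 to 10182 CPM in Fl/Fl 4-OHT cultures). Mitochondrial genes took 1.72 to 3.56% of counts in untreated and 1.36 to 2.19% in Fl/Fl 4-OHT libraries. Markers of other cell types moved in this comparison too, and the part of either in the Kcn differences was not tested. Of the tested markers 5 of 7 neuronal ones were lower (summed level 892 to 1184 CPM in untreated and 651 to 851 CPM in Fl/Fl 4-OHT cultures), 6 of 10 of the oligodendrocyte lineage were higher and 1 lower (3465 to 4514 and 3590 to 5407 CPM), 1 of 8 astrocytic ones was higher and 4 lower (6320 to 8425 and 5593 to 9536 CPM), 2 of 3 ependymal ones were higher (27.3 to 62.1 and 69.8 to 96.2 CPM), and 1 of 4 of pericytes and smooth muscle was higher (69.6 to 122 and 89.4 to 156 CPM). Kcnmb4 fell by 1.69 ± 0.14 (edgeR adjusted p = 4.1e-05), from 61.7 ± 12.0 to 19.0 ± 1.60 CPM, while Kcnc2 fell by 2.32 ± 0.33 (adjusted p = 0.000622) and Kcnq3 fell by 1.13 ± 0.21 (adjusted p = 0.00223). Kcnd2 fell by 0.94 ± 0.17. Kcnn4 rose by 1.52 ± 0.28, Kcna5 by 2.22 ± 0.54, Kcnt1 by 1.14 ± 0.24, Kcnc1 by 0.93 ± 0.22 and Kcnd1 by 0.81 ± 0.17.

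A further 6 calls of this comparison were each lost when some single library was left out, at edgeR adjusted p of 0.0501 to 0.0925. Kcnk3 (TASK1) rose by 1.19 ± 0.38, Kcnk1 by 0.91 ± 0.28 and the strong rectifier Kcnj4 by 0.72 ± 0.21, while Kcnk13 fell by 1.76 ± 0.52, Kcnn2 fell by 1.60 ± 0.51 and Kcnk10 fell by 0.75 ± 0.23. Over all alternatives run the adjusted p of these 6 genes lay between 0.00175 and 0.0925. Kcnk13 lost its call without Fl/Fl 27 (0.0555) or 28 (0.0501), and without untreated mouse 24 its log2 change was -1.07. Kcnk10 lost its call without Fl/+ 24 or 26 or Fl/Fl 27, 29 or 39, Kcnk1 without Fl/+ 19, 24, 26 or 36 or Fl/Fl 27 or 39, Kcnj4 without Fl/+ 24, 26 or 35 or Fl/Fl 27, 28 or 37, Kcnn2 without Fl/+ 19, 24 or 26 or Fl/Fl 27, 28, 37 or 39, and Kcnk3 without Fl/+ 19, 24, 26 or 36 or Fl/Fl 28, 29, 37 or 39.

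The Trrap deletion comparison and the one against untreated cultures share the Fl/Fl libraries, so their values are only set side by side. Of the 18 Kcn genes called in the first, 8 were also called in the second, and the same share over all genes was not counted. Kcnh2 read 18.8, 14.6, 19.1, 25.3 and 21.6 CPM in untreated cultures, and its log2 difference of Fl/Fl 4-OHT from these was 0.42 ± 0.18 (edgeR adjusted p = 0.104). Kcnip1 at 48.5, 34.9, 40.7, 42.8 and 43.2 CPM in untreated cultures overlapped the Fl/Fl 4-OHT cultures, with a difference of -0.19 ± 0.13 and a 95% interval of -0.45 to 0.07.

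Of the partners of Kcn channels without the symbol, 3 of 9 listed genes were tested, with a median log2 change of 0.15 in the Trrap deletion, -0.02 in the 4-OHT and 0.28 in the comparison with untreated cultures (all genes, 0.02, -0.01 and 0.00). Dpp6, a membrane protein that speeds Kv4 gating, fell by 0.72 ± 0.16 with 4-OHT (edgeR adjusted p = 0.0139), from 169 ± 27.3 to 103 ± 21.9 CPM. Of the Kv4 genes Kcnd2 fell in the same comparison, while Kcnd1 (0.17 ± 0.17) and Kcnd3 (-0.22 ± 0.16) were not called there. Amigo1, a membrane protein that associates with voltage-gated potassium channels, rose by 0.31 ± 0.10 in the Trrap deletion comparison (edgeR adjusted p = 0.0387). Other potassium-permeable channels gave 6 tested of 7, with 2 higher in the Trrap deletion comparison (16.8% of all genes were), where the list's median log2 change was 0.18. Those were the lysosomal channel Tmem175, from 29.2 ± 0.641 to 49.7 ± 3.39 CPM (0.78 ± 0.07), and the intracellular cation channel Tmem38b, from 13.9 ± 1.04 to 24.5 ± 1.41 CPM (0.83 ± 0.09), and their log2 changes with 4-OHT were -0.09 ± 0.09 and -0.11 ± 0.10.

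Among pumps and cotransporters 11 of 14 were tested, of which 2 were higher in the Trrap deletion comparison, against 16.8% of all genes, and 3 in the 4-OHT comparison, against 7.34%. The list's median log2 change was 0.12 and 0.21. Slc12a5, which encodes the neuronal potassium-chloride cotransporter KCC2, was at 3.39 ± 1.24 CPM in untreated, 8.93 ± 2.63 CPM in Fl/+ 4-OHT and 18.6 ± 3.45 CPM in Fl/Fl 4-OHT cultures. It rose by 1.40 ± 0.28 with 4-OHT (edgeR adjusted p = 0.00918) and by 1.07 ± 0.20 with Trrap deletion (adjusted p = 0.00268). With 4-OHT Slc12a4 (KCC1) rose by 0.41 ± 0.11 and Slc12a7 (KCC4) by 1.62 ± 0.28, the latter from 5.98 ± 2.78 to 18.4 ± 3.33 CPM.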

How the data were processed

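Poly(A) RNA of 15 cultures was sequenced by the authors as stranded single-end reads. The authors mapped reads to GRCm38 with STAR 2.5.4b and counted uniquely mapped reads per gene with featureCounts 1.5.0, and deposited these as raw counts without normalization. Multi-mapping reads were left out and there were no molecular identifiers. Symbols, coordinates and exon lengths came from GENCODE for GRCm38 (53706 IDs matched, 95 did not). The labels and the methods give the 4-OHT exposure differently, so no dose is printed.

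Each comparison was fitted on its own 10 libraries with edgeR 4.0.16 in R 4.3.3, using filterByExpr (minimum count 10), TMM scaling and the quasi-likelihood F test, with Benjamini-Hochberg adjustment over all genes tested. CPM use TMM-scaled library sizes over 15 libraries, and RPKM divide them by exon length. Intervals are the log2 change with normal limits around its SE. The p-values of the main fits measure the spread between cultures. In the 4-OHT comparison the main fit takes the paired cultures as independent. The p-values of the blocked fit measure the spread of differences within mice. Kcn genes were named if called at a mean of at least 1 CPM in the Trrap deletion or 4-OHT comparison, or among the 10 highest by untreated RPKM. Other members are named where detection or a class is listed, and genes below the level limit, under the block or against untreated cells were picked for naming with their values in view. Alternatives were DESeq2 1.42.0, other scalings and filters, all 15 libraries, sex, the mouse block and leaving out each library. The fit was tested on simulated data. The members and gene lists were chosen with earlier results of these data known. Each of 5 mice gave a culture to each Fl/+ group per the labels. Deviations from group means correlated within a mouse with r of 0.204 to 0.586 in 5 of 5 pairs (between mice, -0.489 to 0.317). The pairing was therefore used as a replicate block, as an alternative to the main fit. No 2 libraries of a group agreed within counting noise. RefSeq windows were taken from a promoter table of GRCm38.p6. Some genes that enter the counts are not reported here by name or value.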

Additional observations from a re-analysis of the deposited data

Results flagged for a closer look

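Among 72 groups of 5 libraries (24 named genes in 3 groups) 7 held a library far from the other 4 by Dixon's test, which by chance marks about 1 group in 20. The untreated culture of mouse 35 was the highest in 3 of them, with 77.7 CPM of Kcnk1 (others 28.6 to 38.7), 197 CPM of Kcnj16 (others 112 to 134) and 1.31 CPM of Kcnn4 (others 0.595 to 0.797). In Fl/+ 4-OHT cultures mouse 24 held 426 CPM of Kcnc1 (others 214 to 267) and 655 CPM of Kcna2 (others 199 to 289), and mouse 19 held 2.03 CPM of Kcnn4 (others 0.706 to 0.870). Fl/Fl 39 held 87.5 CPM of Kcnab2 (others 45.4 to 51.1).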

How the results depend on the processing

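The number of Kcn genes called in the 4-OHT comparison rose from 5 to 11 with the replicate block by mouse, to 11 with DESeq2 and to 10 with all 15 libraries in one fit. The block lost none of the 5. Under the other settings run it was 4 to 7, and 4 to 7 when single libraries were left out. In the Trrap deletion comparison the count was 13 to 23 (18 as reported) and 14 to 21 when single libraries were left out, and 14 of the 18 kept their call in every alternative that tested them (16 or 17 each). Against untreated cultures it was 14 to 24 (16 as reported), 12 to 22 when single libraries were left out, and 10 of 16 kept their call in every alternative that tested them. The count of detected genes was 49 to 63 by other rules and 57 to 58 when single libraries were left out. Called genes kept their direction in all alternatives run, and among single-gene values there were 84 losing and 16 gaining a call against 1310 that did neither. Uniquely mapped reads can undercount close paralogs, and genes near the floor of 3 counts may be expressed below this depth.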
